A study of Mus musculus with 5 samples.

Results

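Cytosolic ribosomal protein genes encode the protein components of the ribosome, the machine that makes protein in the cytoplasm, and 20 of them had RNA listed as enriched with SAMD4. SAMD4 is an RNA-binding protein that represses translation of its target mRNAs. The genes were found in the deposited table of enriched intervals by gene name, as Rpl or Rps followed by a number and at most 1 letter, or as Rplp0, Rplp1, Rplp2 or Rpsa, with pseudogenes and S6 kinases left out. They have 22 of the 673 listed intervals and 20 of its 753 gene names. Reads were not part of this choice by name, but whether an interval is in the table at all depends on its reads. RefSeq holds 81 protein-coding mouse genes under the same naming rule, and the other 61 have no listed interval by name. The table lists only intervals with more reads in the immunoprecipitation than in the control, so a gene that is not listed is not shown to lack reads.

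The RNA came from osteoblasts of the calvaria of FVB mice at P5-P7, homozygous for a piggyBac insertion in Samd4 (Samd4PB/PB), immortalized with SV40 and infected with lentivirus that expresses Flag-tagged SAMD4. An antibody collects the tagged protein from the cell lysate, and the RNA that comes down with it is sequenced (RNA immunoprecipitation). There were 2 libraries of the anti-Flag immunoprecipitation (Flag-SAMD4 IP), 2 of the IgG control and 1 of the input, all from cells with the same genotype and the same Flag-SAMD4. An anti-Flag immunoprecipitation from cells without the tag was not analysed here. Each interval has a single read number per antibody, so there is no replicate error, confidence intervals cover counting error only, each ratio compares the sequenced libraries and not cultures or animals, and no p-value is given. The input was not analysed here. The titles of the control libraries say IgG whereas their antibody label reads Flag, and the titles were followed. Over the whole table the IP reads add up to 3260616 and the IgG reads to 567264. Library depth was not given in the sources used here, and ratios are of raw reads. Of 9 osteoblast markers only Col1a1, the main collagen of bone, is listed, with 3 intervals. The deepest held 3832 IP and 1030 IgG reads (ratio 3.72), and the others had ratios of 3.81 and 5.06. Of 7 markers of other cell types none is listed.

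A ribosome has a small subunit, which reads the mRNA, and a large subunit, which joins the amino acids. The proteins are needed in near-equal numbers, and in vertebrates their mRNAs are known to start with a C and a run of pyrimidines, called the 5′ terminal oligopyrimidine (TOP) tract, through which the mTOR pathway sets their translation. The genes are also known for 2 features of their structure: short introns, many of which carry small nucleolar RNAs (snoRNAs), the guides that direct the modification of ribosomal RNA, and large numbers of processed pseudogenes. RefSeq names 79 pseudogenes after 16 of the 20 listed genes, with up to 23 for 1 gene, Rps12. How reads that fit a gene and its copies were assigned was not given in the sources used here, so the gene behind an exon read is uncertain.

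The first 30 bases after the RefSeq transcript start are shown for 9 genes because the TOP tract lies there in the mRNAs of this family. They are the 3 genes with the highest and the 3 with the lowest ratio (IP reads over IgG reads) among those with a sequence, and 3 others with a tract of at least 10 bases. Capitals mark a pyrimidine tract, searched anywhere in the 30 bases as a C followed by at least 5 bases that are each C or T. The coding strand alone was searched. Coordinates are of GRCm38.p6, whereas those of the intervals are of mm9.
Rpl13 (chr8:123102350-123102379, plus strand): ttttgattggcgtttgagattggccggact
Rps2 (chr17:24720063-24720092, plus strand): cgcgCTTCTTggagcactataaattgtccc
Rps13 (chr7:116334161-116334190, minus strand): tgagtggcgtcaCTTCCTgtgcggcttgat
Rps10 (chr17:27635215-27635244, minus strand): CTTCCTTTCCagcctccgcctcggaccctg
Rpl27a (chr7:109519195-109519224, plus strand): tCCCTTTTCCCTTTCTgccaccgccatggt
Rpl18 (chr7:45718071-45718100, plus strand): gCTCTTTCCCCgcccactccggcgcggttc
Rps12 (chr10:23787180-23787209, minus strand): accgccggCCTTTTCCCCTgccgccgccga
Rplp0 (chr5:115559467-115559496, plus strand): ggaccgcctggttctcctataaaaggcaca
Rpl10a (chr17:28328471-28328500, plus strand): cggccgcaaactgcagcgCCTCTCCggctt
The tract is 15 bases long in Rpl27a and 6 bases long in Rps13 and Rps2. It starts at the annotated first base only in Rps10, and as late as base 19 in Rpl10a. A match is thus a pyrimidine run within the window and is not shown to be a TOP tract. A start without a match is not shown to lack a TOP tract either. That of Rplp2, counted as without a tract, begins with a C in a run of 5 pyrimidines. A start sequence was found for 15 of the 20 genes, and 9 of the 15 hold a tract in this window. Among the ribosomal protein genes without a listed interval 23 of 46 do, and among all genes of the table of starts 23.1% of 27025 do. The ratio of IP to IgG reads in the deepest interval had a median of 3.44 (2.50 to 11.1) for the 9 genes with a tract and of 4.33 (2.59 to 17.1) for the 6 without, so the ranges overlap. On the coding strand of the first 50 bases, CNGG, the loop sequence of SMAUG recognition elements to which SAMD4 is known to bind, occurs in 8 of the 15 genes, in 34 of the 46 ribosomal protein genes without a listed interval and in 71.3% of all genes. These matches describe the annotated starts and are not measured binding sites.

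In every listed interval of these genes the IP had more reads than the IgG, as in all listed intervals, and the ratio was mostly low within the list. The deepest interval of each gene had a median of 3.80 IP reads per IgG read. Only Rpl13 and Rps2, 2 of the 20 genes, were past 10-fold, whereas 43.7% of all 753 gene names were, each counted by its deepest interval. By interval, 2 of 22 were past 10-fold, against 44.7% of all 673. Over the 22 intervals the ratio ranged from 2.50 to 17.1 with a median of 4.01, against 2.47 to 336 with a median of 8.67 over the other 651 intervals. A ratio under 5 was found for 13 of the 22 and for 23.0% of the others. The intervals were deep for this table: the median was 218.5 IP and 43.5 IgG reads, against 71 and 5 in the other intervals. The next values are for intervals with at least 100 IP reads, a limit chosen after the values were seen. The median ratio was 3.67 over 18 intervals of ribosomal protein genes and 6.51 over 243 others. A ratio under 5 was found for 11 of the 18 and for 41.6% of the 243. A ratio past 10-fold was found for 2 of the 18 and for 39.5% of the 243. Among the others, ratios under 5 were thus less common in shallow intervals, so the shares over all intervals compare unlike depths. Among intervals that touch coding bases the medians were 3.80 over 18 and 8.98 over 472. With IgG reads scaled by 1.64, as the p-values of the table imply, the median ratio of the 20 genes was 2.32 and Rpl13 alone was past 10-fold, at 10.5, against 26.0% of all gene names. No test of these differences was made, since the design has no replicates.

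**Figure D1:**
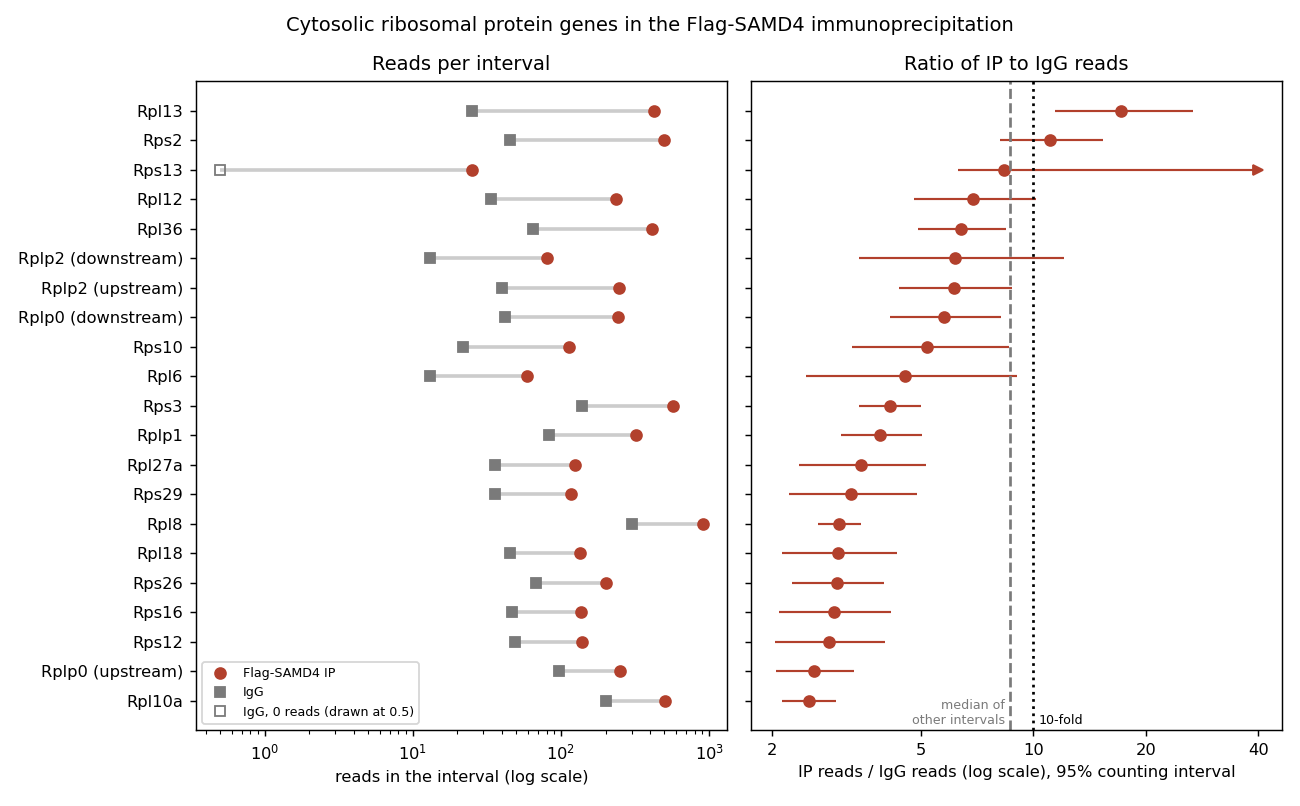
Left, reads in the Flag-SAMD4 IP (circles) and the IgG (squares) in each of 21 intervals, on a log scale, ordered by ratio. Right, the ratio of IP to IgG reads with its 95% counting interval on a log scale; the arrow marks an open upper end, the dashed line the median of the other listed intervals (8.67) and the dotted line 10-fold. Rpl13 lies highest at 17.1 and Rpl10a lowest at 2.50.

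**Figure D2:**
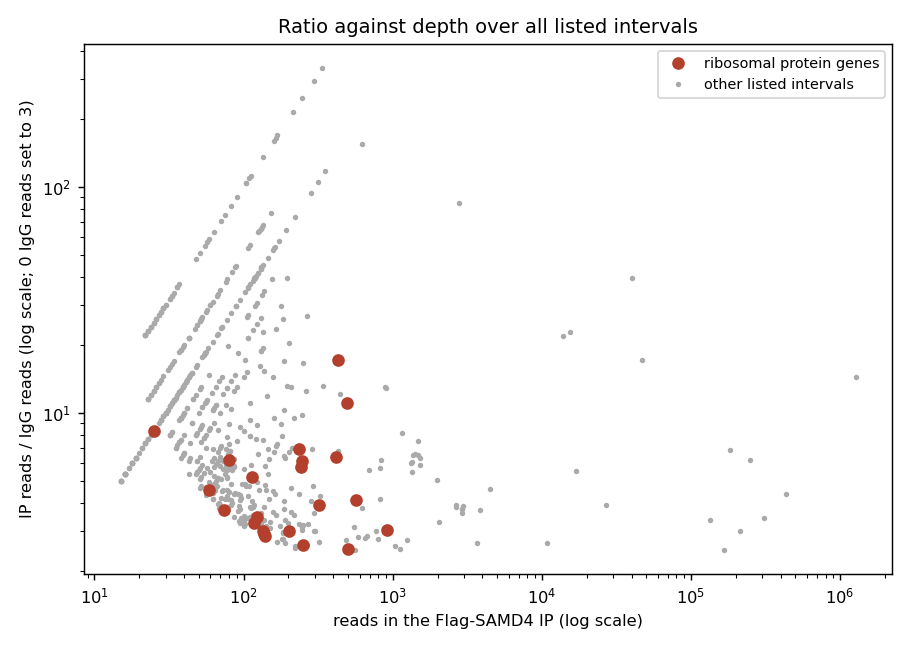
Ratio of IP to IgG reads against IP reads for the 22 intervals of ribosomal protein genes and the 651 other listed intervals, both axes on a log scale, with IgG reads of 0 set to 3. The 22 intervals lie between 25 and 910 IP reads, and 20 of them lie under 10-fold.

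The ribosomal stalk is a flexible arm of the large subunit that recruits the elongation factors. It is built from Rplp0, which anchors it to the ribosome, and the acidic proteins Rplp1 and Rplp2, and all 3 genes were listed. Rplp0 had 2 intervals that differ in ratio. Its downstream interval, over the last exon, held 242 IP against 42 IgG reads (ratio 5.76, 95% interval 4.14 to 8.20). Its upstream interval held 251 IP against 97 IgG reads (ratio 2.59, 95% interval 2.04 to 3.31). The IP reads were nearly equal, and it is the IgG reads that differ, so that the counting intervals of the ratios do not overlap. The upstream interval ends at base 116012575 of chromosome 5 (mm9) and the downstream one begins at 116013292, which are the last base before and the first base after the last intron of the RefSeq transcript NM_007475. The gap between the intervals is thus the whole intron of 716 bases. Rplp2 also had 2 intervals, and these had nearly equal ratios. The upstream one, across the transcript start, held 245 IP against 40 IgG reads (ratio 6.13, 95% interval 4.37 to 8.78), and the downstream one, across the transcript end, held 80 IP against 13 IgG reads (ratio 6.15, 95% interval 3.40 to 12.1). Rplp1 had 323 IP against 83 IgG reads over its start (ratio 3.89, 95% interval 3.05 to 5.02). With the reads of both intervals added, the ratio was 3.55 for Rplp0 and 6.13 for Rplp2.

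Of the other 8 large subunit genes, Rpl13 stood at the upper end and Rpl10a at the lower end of all 22 intervals. Rpl13, a protein of the large subunit surface without a bacterial counterpart, had 428 IP against 25 IgG reads (ratio 17.1, 95% interval 11.4 to 26.8) in 610 bases of chromosome 8 from 125626290 to 125626899. Its counting interval lies above those of 18 of the other 21 intervals and overlaps those of Rps2, Rps13 and the downstream interval of Rplp2. Rpl10a, which forms the arm beside the site where spent tRNA leaves, had 503 IP against 201 IgG reads (ratio 2.50, 95% interval 2.12 to 2.96). These genes therefore had similar IP reads and far fewer IgG reads in Rpl13. The interval of Rpl10a, on chromosome 17 from 28465490 to 28467382, is 1893 bases long and the longest of the 22, and per 100 bases it held 26.6 IP reads, against 70.2 for Rpl13. Rpl8, which lies close to the centre where peptide bonds form, had the most reads of the family, 910 IP and 301 IgG reads (ratio 3.02, 95% interval 2.65 to 3.46). Rpl36 had 415 IP against 65 IgG reads (ratio 6.38, 95% interval 4.91 to 8.43), and its counting interval does not overlap that of Rpl8. Rpl12, at the base of the stalk, had 234 IP against 34 IgG reads (ratio 6.88, 95% interval 4.79 to 10.2). Rpl18 and Rpl27a were in the lower range of ratios. Rpl18 had 135 IP against 45 IgG reads (ratio 3, 95% interval 2.13 to 4.30), and Rpl27a had 124 IP against 36 IgG reads (ratio 3.44, 95% interval 2.36 to 5.14). Rpl6 was the shallowest per base, with 59 IP against 13 IgG reads in 728 bases (ratio 4.54, 95% interval 2.46 to 9.02).

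The 9 small subunit genes had 1 interval each, and only Rps2 was past 10-fold. Rps2, a protein at the channel through which mRNA enters the ribosome, had 498 IP against 45 IgG reads (ratio 11.1, 95% interval 8.15 to 15.4) in 195 bases of chromosome 17 from 24857203 to 24857397. At 255 IP reads per 100 bases it was the densest of the 22 intervals. The interval carries a further name, Gm10653, for transcripts with the same start and end. Rps3, which also lines the mRNA entry, had 569 IP against 138 IgG reads (ratio 4.12, 95% interval 3.42 to 5.003), in an interval shared with a snoRNA. Rps13 was the one gene without IgG reads, as 14.4% of all listed intervals were. It had 25 IP against 0 IgG reads in an interval of 40 bases, the shortest and shallowest of the 22. Against a floor of 3 IgG reads this is at least 8.33-fold before the counting error of the IP reads, and the 95% interval of its ratio starts at 6.29 and has no upper end. Rps13 therefore cannot be ranked against Rpl13 or Rps2. Rps10, on the head of the small subunit, had 114 IP against 22 IgG reads (ratio 5.18, 95% interval 3.26 to 8.59). Rps29, Rps26, Rps16 and Rps12 lay between 2.84 and 3.25 with counting intervals that overlap each other. Rps29, a zinc-binding protein of the head, had 117 IP against 36 IgG reads (ratio 3.25, 95% interval 2.22 to 4.86). Rps26, at the site where mRNA leaves, had 203 IP against 68 IgG reads (ratio 2.99, 95% interval 2.26 to 3.99). Rps16, whose tail reaches toward the tRNA in the ribosome, had 137 and 47 (ratio 2.91, 95% interval 2.08 to 4.15), and Rps12 had 139 and 49 (ratio 2.84, 95% interval 2.03 to 4.01). In human, RPS10, RPS26 and RPS29 are among the genes mutated in Diamond-Blackfan anaemia.

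The ranges of the ratio overlapped between the subunits. The 5 intervals of stalk genes had a median ratio of 5.76 (2.59 to 6.15), the 8 of the other large subunit genes one of 3.99 (2.50 to 17.1), and the 9 of small subunit genes one of 3.70 (2.84 to 11.1). Added up, the reads were 1141 IP and 275 IgG for the stalk, 2808 IP and 720 IgG for the other large subunit genes and 1876 IP and 425 IgG for the small subunit. IP reads and IgG reads rose together over the 22 intervals (Spearman rho 0.79), as they did over the other 651 intervals (0.72). All points come from the same libraries. The ratio had little relation to IP reads (Spearman rho -0.04, against -0.21 over the others).

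The intervals lay toward the transcript start in 11 of the 22 cases, near the share among other listed intervals. There the RefSeq start was within the interval or up to 100 bases from it, against 42.1% of the other 651 listed intervals and 47.2% of the 472 others that touch coding bases. Of the 651 others, 581 have a RefSeq transcript, and those without one were counted as not near a start. Among the 11 intervals, only the upstream one of Rplp2, from position -30 to 638, and that of Rplp1, from position -5 to 199, reached over the start itself. In the other 9 the 5′ edge lay 14 to 81 bases downstream of the start, with a median of 23. It was 14 bases in Rps26, 15 in Rpl12 and 16 in Rpl8, and 20 in Rpl6 and 23 in Rps12, so the first annotated bases were outside these intervals. When any transcript of the gene name in the table was used, including short ones that start inside the gene, 9 of 22 intervals held a start, against 47.0% of the others. With a distance of up to 100 bases from such a start it was 13 of 22, against 68.8% of the others. The 11 intervals near the RefSeq start had a median ratio of 3.89 (2.50 to 17.1) and the 11 further off one of 4.12 (2.59 to 11.1). The most distant ones were the downstream intervals of Rplp0, from position 3816, and Rplp2, from position 3501. That of Rplp0 holds 162 coding bases and 178 bases of 3′ UTR, and that of Rplp2 holds 77 coding bases and 34 bases of 3′ UTR and runs 53 bases past the transcript end. Rpl36 is short enough for its interval, of 684 bases, to run from intron 1 into the 3′ UTR.

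**Figure D3:**
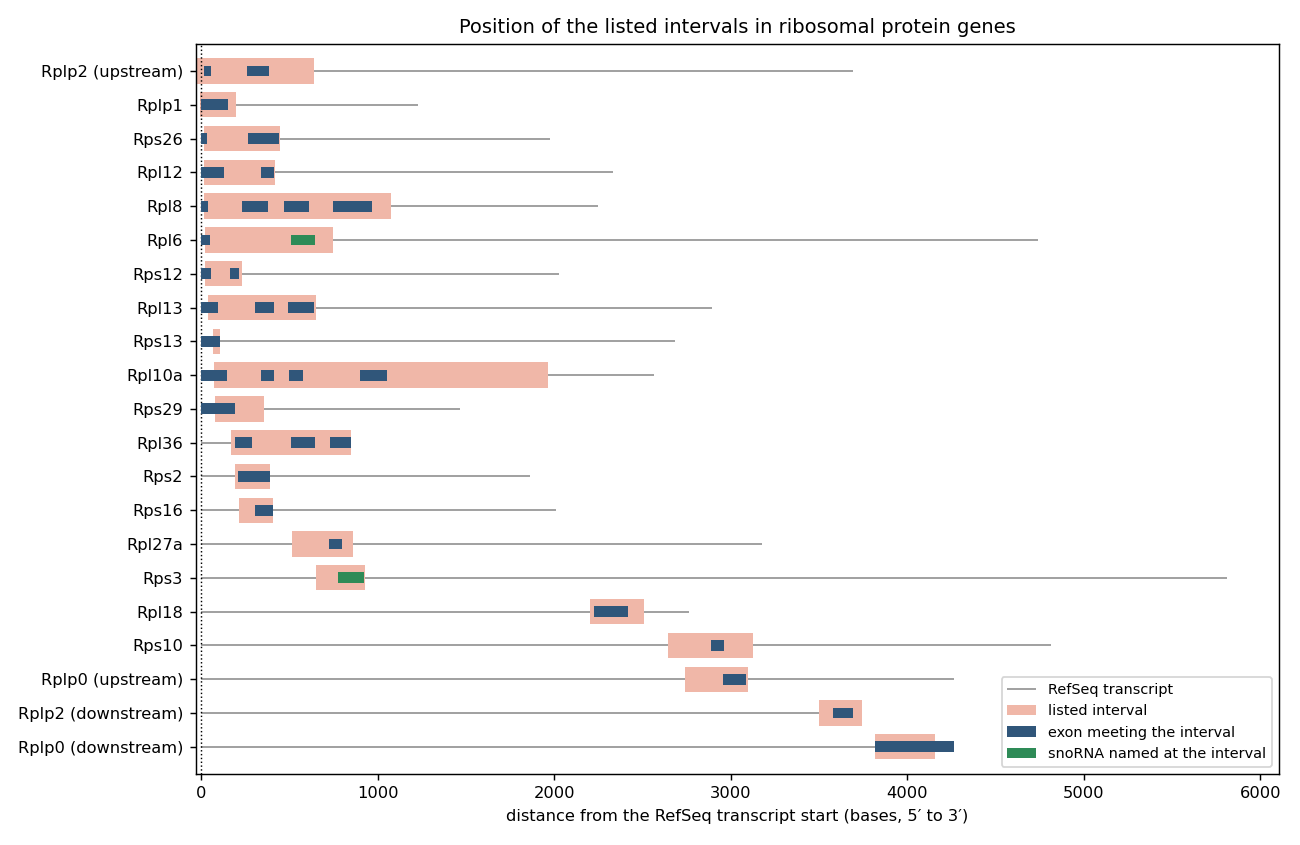
Listed intervals (pink) of 21 cases on the RefSeq transcript (grey line), by distance in bases from the transcript start, with the exons that meet the interval (blue) and the snoRNAs named there (green). For the upstream intervals of Rplp0 and Rplp2 the exons are those of an Ensembl transcript. The 11 intervals at the top begin within 81 bases of the start.

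Introns made up a large part of these intervals. The median share of intron bases, each interval taken at the median over its transcripts, was 49.5%, against 4.94% of the other 651 intervals and 6.26% of the 472 others with coding bases. With the transcript that has the fewest intron bases the share was 26.0%. Over 50% of the interval was intron in 10 of 22, against 16.7% of the others. The table does not say where in an interval the reads lie, so these are shares of bases and not of reads. Whole introns lay inside the interval in 8 of 22, against 14.7% of the others. Rpl10a and Rpl8 each held 3 whole introns and Rpl13 and Rpl36 held 2. In Rpl8, 530 of 1062 bases were intron and 499 were coding, and in Rpl10a, 1514 of 1893 bases were intron. The intervals with a whole intron had a median ratio of 4.57 (2.50 to 17.1), and the 14 without had one of 4.01 (2.59 to 11.1). Rps10 and Rpl27a each had 1 coding exon, of 78 and 76 bases, with intron sequence on both sides that made up 83.9% and 78.0% of the interval.

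Other intervals ended at the border of an exon. An edge of the interval fell exactly on a splice site in 6 of 22, against 42.4% of the others and 49.6% of the 472 others with coding bases. Among intervals with at least 100 IP reads the order was the other way, with 4 of 18 (22.2%) against 17.3% of 243 others. Among the 6 are both intervals of Rplp0 and those of Rps2, Rps13 and Rps16. That of Rps2 ends with the last base of its exon, and 15 of its 195 bases are intron in NM_008503. That of Rps13 covers the last 40 bases of the first exon, 17 of 5′ UTR and 23 coding, and no intron base. Coding bases were touched by 18 of the 22 intervals, a 5′ UTR by 13 and a 3′ UTR by 5 in the transcripts that the table gives at the interval, against 72.5%, 55.1% and 14.7% of the others. At the upstream intervals of Rplp0 and Rplp2 no RefSeq transcript is given, so the counts for these genes are minimums.

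**Figure D4:**
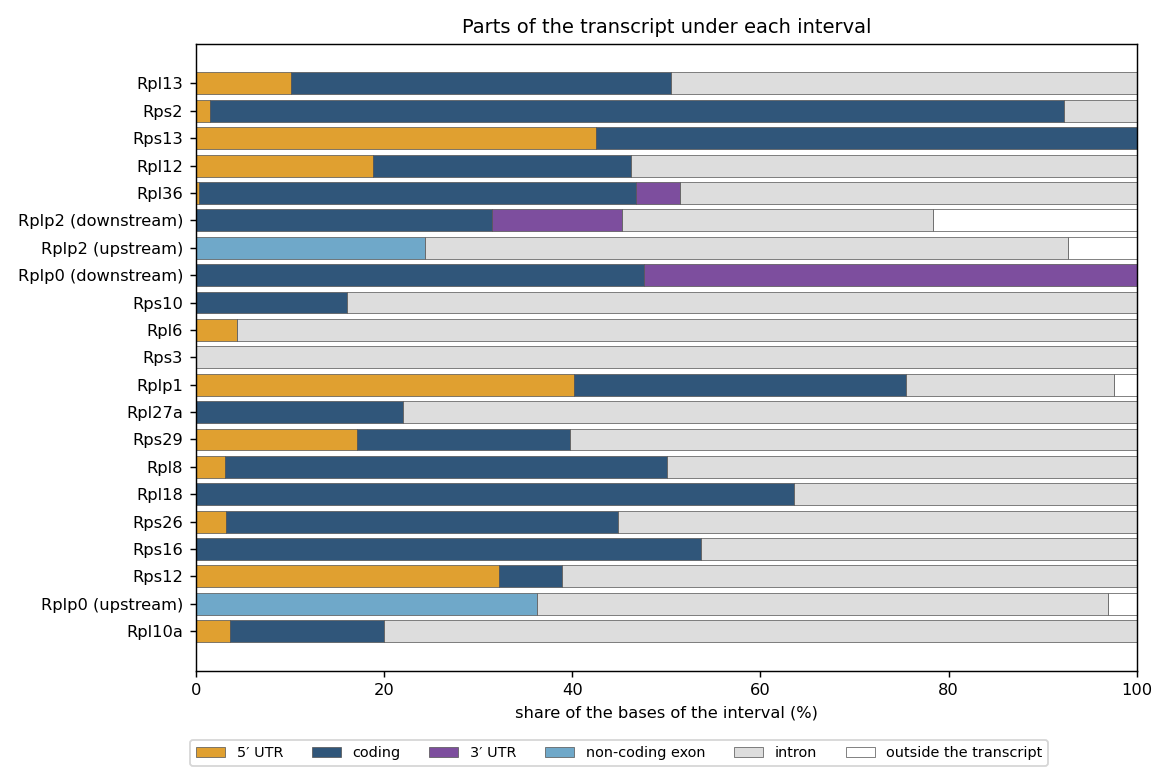
Share of the bases of each of 21 intervals, in percent, that are 5′ UTR, coding, 3′ UTR, non-coding exon, intron or outside the transcript, in the RefSeq transcript (an Ensembl transcript for the upstream intervals of Rplp0 and Rplp2), ordered by ratio from Rpl13 to Rpl10a. Intron (grey) makes up from 0% to 100% of the interval.

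Small nucleolar RNAs were named at 2 of the 22 intervals, those of Rps3 and Rpl6, against 2.15% of the other 651. The search took names that start with Snor or Scarna, so intervals named U3, also a snoRNA, count as having none. Among intervals with at least 100 IP reads a snoRNA was named at 1 of 18, against 4.94% of 243 others. The intervals of Rps3 and Rpl6 consist almost wholly of intron. In neither can reads of the snoRNA and of the unspliced host RNA be told apart. The interval of Rps3, on chromosome 7 from 106631291 to 106631567, lies wholly in an intron of NM_012052, and Snord15a, which guides methylation of ribosomal RNA, covers 148 of its 277 bases. No base of the Rps3 mRNA lies under this interval. It held 205 IP reads per 100 bases, next to Rps2. In the interval of Rpl6, 696 of 728 bases are intron, 134 of them under a snoRNA named SNORA42 in the table, and 32 are 5′ UTR of exon 1, at 8.10 IP reads per 100 bases. A further interval, which the table names Snord15b alone, lies inside the span of Rps3 on the same strand, on chromosome 7 from 106627667 to 106628235. It is not among the 22 because the table does not name Rps3 there. It held 817 IP against 197 IgG reads, a ratio of 4.15 (95% interval 3.55 to 4.87), nearly that of the interval with Snord15a (4.12). In RefSeq a snoRNA lies, on either strand, within the span of 10 of the 20 listed genes and of 19 of the 61 not listed. The strand was not compared, so these genes are not all shown to be hosts. For Rps2 the snoRNAs within the RefSeq gene span (GRCm38.p6) are Snora64 and Snora78, the latter on the opposite strand. Of the 10 listed genes 8, with Rps13, Rps2 and Rpl13 among them, had an interval with no snoRNA named. Next to Rps2, on the opposite strand, the interval of Snhg9 and Snora78 held 76 IP against 11 IgG reads (ratio 6.91, 95% interval 3.65 to 14.4). It lies 171 bases upstream of the start of NM_008503, the Rps2 transcript used for mm9 positions, and so outside that transcript.

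Other genes related to these were taken from short lists that leave out many genes of translation. Of 20 other RNAs known to start with a TOP tract, 5 were listed, beside 20 of the 81 ribosomal protein genes. Only Eif3h, a subunit of an initiation factor, was past 10-fold, against 43.7% of all gene names. It had 51 IP against 2 IgG reads (ratio 25.5, 95% interval 6.71 to 216). Fau, which encodes a ribosomal protein of the small subunit fused to a ubiquitin-like protein, had 104 IP against 22 IgG reads (ratio 4.73). Tpt1, an abundant growth-related mRNA, had 198 and 61 (ratio 3.25), Vim, the intermediate filament vimentin, had 294 and 62 (ratio 4.74), and Snhg1, a host of snoRNAs, had 1032 and 402 (ratio 2.57). The median of the 5 ratios was 4.73 (2.57 to 25.5), against 3.80 for the 20 ribosomal protein genes. Of 18 genes for ribosome assembly only Fbl, the methyltransferase that works with snoRNAs, was listed, with 23 IP against 0 IgG reads (at least 7.67-fold against the floor of 3 reads, before the counting error of the IP reads, and a 95% interval that starts at 5.75). Mitochondrial ribosomal proteins and S6 kinases had 0 listed names each. Names that start with Snhg, given to non-coding hosts of snoRNAs, were listed 4 times, as Snhg3, Snhg4, Snhg9 and again Snhg1. Their median ratio was 2.82, and 0 were past 10-fold, against 43.7% of all gene names.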

How the data were processed

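The authors sequenced immunoprecipitated RNA of Samd4PB/PB osteoblasts with Flag-SAMD4 (2 IP, 2 IgG and 1 input library, grouped by their titles). The submitters' processing notes name TopHat2 2.0.9 and the mouse build mm9. How intervals were called and libraries pooled was not given in the sources used here. In 16285 lines, each an interval and a part of a transcript, the authors deposited a count of reads per antibody, overlapping bases, and their own fold, p-value and q-value. The folds and q-values of the deposited table, which hold the authors' own comparison, were not used. The deposited p-values served only to find the factor by which the IgG count was multiplied: 1.64 matched 549 of 549 intervals with IgG reads and under 2000 reads, within a relative tolerance of 0.0001.

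The ratio is IP over IgG reads, with 0 IgG reads set to a floor of 3. Its 95% interval was converted from that of the share of IP reads (Clopper-Pearson). A gene was counted past the limit at a ratio of at least 10 in its interval with the most IP reads. The table does not list every transcript at every interval, so starts and splice sites were taken from all lines of a gene name, and intron shares from the lines of the interval. Interval coordinates are mm9, counted from 1. Start sequences, snoRNAs and pseudogenes come from RefSeq (GRCm38.p6), matched by symbol and used without mm9 coordinates. The counting interval and the limit were tested on reads simulated at fixed ratios. The simulation held no variation between libraries and no selection of intervals into the list, so it covers counting error only. Python 3.11.15, SciPy 1.17.1 and pandas 2.3.3 were used. Genes and lists were chosen with earlier results of these data known. The genes are named, apart from 1 that is counted in every total but not reported here by itself, with others where they share or border an interval, and up to 4 of each list by IP reads with, in addition, the fifth TOP mRNA, Eif3h, named after its values were seen. Alternatives changed the fold limit, the floor, the IgG factor, the interval used for a gene, the transcripts and the distances.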

Additional observations from a re-analysis of the deposited data

How the results depend on the processing

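Among the 20 genes, 2 passed the 10-fold limit. With a limit of 5 it was 7 (74.4% of all gene names), and with a limit of 20 it was 0 (22.6%). With the IgG reads scaled by 1.64, the factor found in the p-values, it was 1 (26.0%), and with the lower bound of the counting interval at 10 it was 1 (16.1%), Rpl13 in both. With a floor of 1 it was 3 (50.5%), Rps13 being added, and with reads of all intervals added it was 2 (43.7%). The median ratio of 3.80 ranged from 2.32, with the scaled IgG reads, to 4.01, over all 22 intervals. With RefSeq transcripts alone 2 intervals held a start instead of 9. With a distance of up to 100 bases from the start of any transcript it was 13 of 22, against 68.8% of the other 651 intervals. The median intron share of 49.5% was 26.0% with the transcript that has the fewest intron bases, and 54.4% with the one that has the most. An edge lay within 5 bases of a splice site in 7 intervals instead of 6, a distance chosen after seeing the data. The cause of these changes was not tested. No paired analysis was possible because the deposited columns hold 1 value for the IP and 1 for the IgG, without the numbers of the libraries, and for the same reason no library could be left out. Counting error limits shallow intervals most, such as those of Rps13 (25 IP reads) and Rpl6 (59).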
